A study of Mus musculus with 6 samples.

Results

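Expression of 10 genes of the BCL2 family was described in LSK cells, the Lin- Sca-1+ c-Kit+ fraction of mouse bone marrow that holds the hematopoietic stem cells and the earliest multipotent progenitors. The genes were Bcl2, Bcl2l1, Mcl1, Bax, Bak1, Bbc3, Pmaip1, Bcl2l11, Bid and Bad, taken by name as the core members of the mitochondrial pathway of apoptosis, out of 45706 genes counted. All 10 passed the filter on low counts, with between 62 and 5126 counts per gene and library, and were tested among 15184 genes. RNA was sequenced from sorted LSK cells of 6 male C57BL/6 mice (C57BL/6J in the study's methods), 1 library per mouse, and per the study's methods the groups were littermates. The 3 Ctrl mice carried a conditional and a wild-type allele of the H3K4 methyltransferase gene Setd1b (Setd1b HET, FD/+; RC/+), and the 3 cKO mice carried the conditional allele on both copies (Setd1b HOM, FD/FD; RC/+). In the conditional allele an exon lies between loxP sites, and its excision shifts the reading frame. All 6 mice carried 1 copy of Rosa26-Cre-ERT2 (RC/+), a tamoxifen-activated Cre expressed in nearly all tissues, so that Ctrl mice lose 1 Setd1b copy as well and the bone marrow niche is recombined along with the blood cells. Tamoxifen was given to both groups at 4.5 mg per day by gavage, per the labels over 4 days and, after a pause of 3 days, over 2 more (the study's methods give another number of doses), and the mice were killed 3 days after the last dose, at an age of 16 weeks (17 weeks for cKO 3). The question was how the transcripts of the family's pro-survival and pro-apoptotic members differed after loss of Setd1b. The study itself saw no change of apoptosis in stem and progenitor cells of cKO mice, without showing the data or giving the time. Apoptosis was not measured by the counts described here.

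Proteins of the BCL2 family decide at the mitochondrial outer membrane whether a cell enters apoptosis. Pro-survival members such as Bcl2, Bcl-xL (from Bcl2l1) and Mcl1 hold the effectors Bax and Bak in check, and BH3-only proteins, made or activated under stress, bind the pro-survival members or the effectors. Free Bax and Bak permeabilize the membrane, which releases cytochrome c and activates caspases, and blood stem cells are known to require Mcl1 for their survival. Much of this control acts on the proteins, by cleavage of Bid, phosphorylation of Bad and rapid turnover of Mcl1, and was not measured by RNA counts. Several of these genes also give splice forms of opposite function (the long and short forms of Bcl2l1 and Mcl1), which a count per gene sums.

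Between 13003573 and 21277519 reads per library were counted on genes. The total Setd1b count (ENSMUSG00000038384) was higher in the libraries labelled cKO. It was 221, 194 and 223 CPM (counts scaled to a common library size with edgeR's TMM factors) in Ctrl 1, 2 and 3 and 272, 288 and 314 CPM in cKO 1, 2 and 3 (log2 fold change 0.46, adjusted p = 0.0015). The excised exon cannot be seen in counts per gene, so that this total neither shows nor contradicts its loss. All directions below are for the libraries labelled cKO against Ctrl. Weeks after tamoxifen, the study found complete recombination by PCR in sorted blood cells. In sorted progenitors it found Setd1b mRNA lost by qRT-PCR with a primer in the excised exon. By the library numbers in the table header, the libraries form a first and a second series. The first holds cKO 1, cKO 2 and Ctrl 1, and the second Ctrl 2, Ctrl 3 and cKO 3. Neither the labels nor the study's methods name these as batches, and differences of the BCL2 family genes are also given within each. Of the genes tested, 1164 passed an adjusted p of 0.05 (7.67%), 3.88% as higher (589) and 3.79% as lower (575) in the cKO-labelled libraries. Total counts without factors gave 820 higher and 356 lower, and removal of a trend with gene length 531 and 846, with negative fold changes of Bcl2 and positive ones of Mcl1 under both. The median log2 fold change of all genes tested was 0.00023. P-values measure the spread between mice, and with 3 mice in each group the smallest two-sided p that exact permutation allows is 0.1.

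Bcl2 fell and Mcl1 rose among the 10 genes, and the other 8 did not pass the test. These 2 calls of 10 stand beside the 7.67% called among all genes tested. The groups did not overlap for Bcl2, Mcl1, Bax and Bak1, against 27.3% of all genes tested, and 5 of the 10 genes had an unadjusted p under 0.05, against 22.9% of all genes tested. Fold changes were negative for 7 genes and positive for 3, with a median of -0.11 on the log2 scale.

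**Figure D1:**
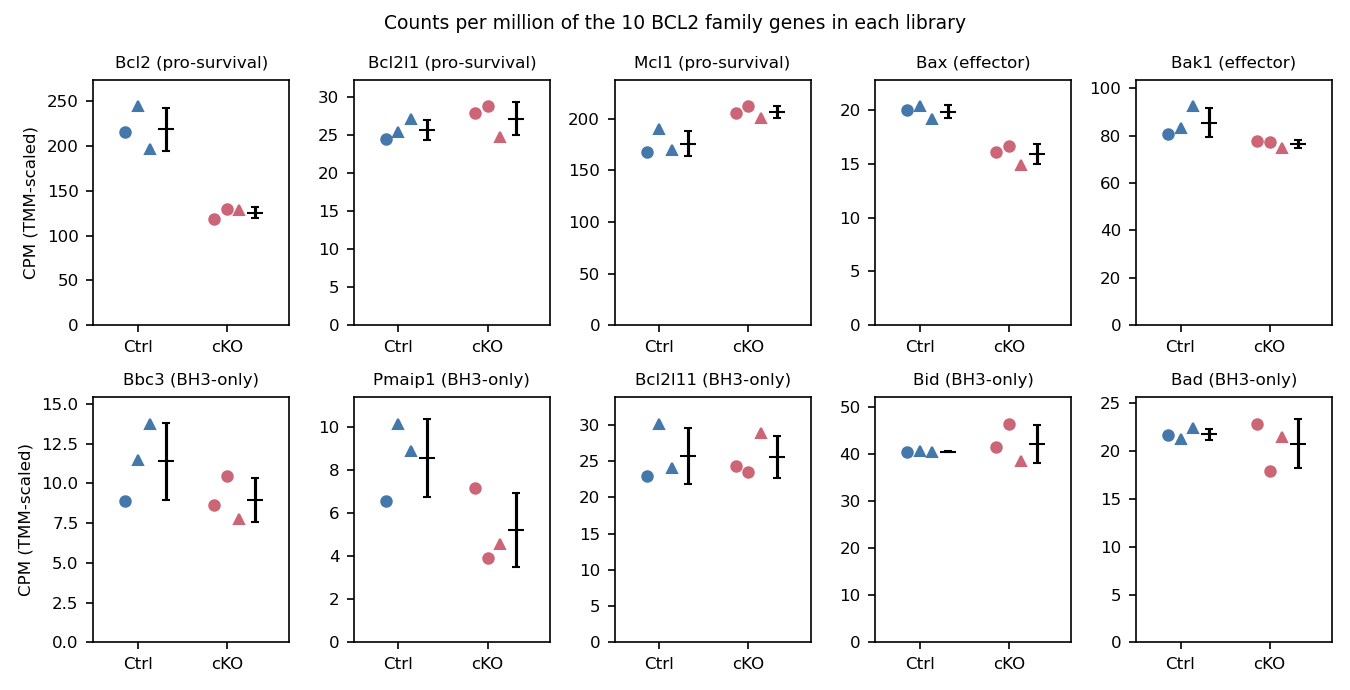
Expression in CPM (y axis, linear from 0, a scale of its own in each panel) of the 10 BCL2 family genes in the 3 Ctrl and 3 cKO-labelled libraries, with circles for libraries of the first series, triangles for the second, and mean and SD beside them. Ctrl and cKO-labelled libraries are separate for Bcl2, Mcl1, Bax and Bak1 and overlap for the other 6 genes.

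Bcl2, the founding pro-survival member of the family, lies on the minus strand of chromosome 1 from 106538178 to 106714274 (GRCm38, ENSMUSG00000057329). It was counted at 215, 244 and 197 CPM in Ctrl 1, 2 and 3 and at 118, 130 and 129 CPM in cKO 1, 2 and 3. Every cKO-labelled library lay below every Ctrl library. The means were 219 ± 24.0 CPM in Ctrl and 126 ± 6.41 CPM in the cKO-labelled libraries (SD, n = 3 each), 1.74-fold lower. The log2 fold change was -0.80 (standard error 0.079, 95% interval -0.97 to -0.63, adjusted p = 1.9e-05), the 34th smallest p of all genes tested. The first series gave -0.80 and the second -0.76, and the fall passed the threshold under 16 of 16 alternatives of processing, from -0.87 to -0.71. The antisense gene D630008O14Rik shares 558 exon bases with Bcl2 on the other strand and had 0 to 7 counts, and the counting used strand.

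Mcl1, a short-lived pro-survival protein, is encoded on the plus strand of chromosome 3 from 95658788 to 95663176 (ENSMUSG00000038612). Its level was 167, 190 and 170 CPM in Ctrl 1, 2 and 3 and 206, 212 and 201 CPM in cKO 1, 2 and 3. Every cKO-labelled library lay above every Ctrl library, with means of 176 ± 12.5 and 206 ± 5.74 CPM (SD, n = 3 each). The log2 fold change was 0.23 (standard error 0.067, 95% interval 0.09 to 0.37, adjusted p = 0.049), the 1157th smallest p. It was 0.32 in the first series and 0.16 in the second. The rise stood just inside the threshold and passed it under 7 of 16 alternatives, at fold changes of 0.19 to 0.29. Scaled by DESeq2's size factors it had an adjusted p of 0.053, with the library series as a covariate also 0.053 (fold change 0.24). Leaving out cKO 1, cKO 2, cKO 3, Ctrl 1 or Ctrl 3 gave 0.23, 0.21, 0.24, 0.19 and 0.20 with adjusted p-values of 0.12, 0.19, 0.078, 0.13 and 0.17.

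The windows of 250 bases upstream of the RefSeq start sites are printed for this falling and this rising gene, since Setd1b belongs to the enzymes that methylate H3K4 at promoters, a mark that was not measured here. Both are taken from RefSeq on GRCm38.p6, for Bcl2 chr1:106714291-106714540 on the minus strand and for Mcl1 chr3:95658471-95658720 on the plus strand, 5′ to 3′, with capitals for GGGCGG (the GC box) and CCGGAA (the core of ETS factor sites) on either strand.
Bcl2: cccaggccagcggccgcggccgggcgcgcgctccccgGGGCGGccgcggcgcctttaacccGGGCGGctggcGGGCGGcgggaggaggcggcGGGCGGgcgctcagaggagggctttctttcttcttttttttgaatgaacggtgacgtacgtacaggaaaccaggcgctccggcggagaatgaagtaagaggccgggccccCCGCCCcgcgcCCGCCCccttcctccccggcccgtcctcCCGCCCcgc
Mcl1: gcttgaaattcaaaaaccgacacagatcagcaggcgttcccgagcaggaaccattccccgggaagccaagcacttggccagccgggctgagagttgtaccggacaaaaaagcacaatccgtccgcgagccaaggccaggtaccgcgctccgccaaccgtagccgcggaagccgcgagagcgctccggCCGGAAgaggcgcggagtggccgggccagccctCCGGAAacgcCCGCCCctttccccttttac
The Bcl2 window holds 36 CG dinucleotides, more than 97.4% of 32851 mouse promoter windows of this length, and 74.8% G and C. GGGCGG occurs 7 times in it, on either strand, and in 32.7% of all windows at least once. The Mcl1 window holds 26 CG dinucleotides, more than 90.4% of all windows, and 64.4% G and C, against medians of 6 and 52.4% over all windows. It has GGGCGG 1 time and CCGGAA 2 times, and CCGGAA occurs in 12.03% of all windows. The CCAAT box, the TATA box as TATAAA, and the E-box CACGTG, each searched on both strands, matched in neither window and in 33.8%, 12.4% and 6.02% of all windows. No 2 of these motifs overlap each other in these windows. Both printed windows are rich in CG. Among the windows of members that did not pass the test, CG dinucleotides ran from 0 (Bcl2l1) to 37 (Bbc3), with none taken for Pmaip1. That Bbc3 window holds GGGCGG 7 times and 81.6% G and C. A high CG count was thus not particular to the called genes. A link between these windows and the counts was not tested.

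Bcl2l1, the gene of Bcl-xL, lies on chromosome 2 from 152780668 to 152831728 and did not pass the test. It was at 24.6, 25.5 and 27.1 CPM in the Ctrl libraries and at 28.0, 28.8 and 24.8 CPM in the cKO-labelled ones. The groups overlapped, and the log2 fold change was 0.08 (95% interval -0.14 to 0.30, adjusted p = 0.71), 0.21 in the first series and -0.09 in the second.

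Both effectors lay lower in every cKO-labelled library than in every Ctrl library, and neither passed the test. Bax, on chromosome 7 from 45461695 to 45466898, was at 20.0, 20.4 and 19.2 CPM in Ctrl and at 16.1, 16.6 and 14.9 CPM in the cKO-labelled libraries. Its means were 19.8 ± 0.591 and 15.9 ± 0.916 CPM (SD, n = 3 each). The log2 fold change of Bax was -0.32 (standard error 0.12, 95% interval -0.57 to -0.07), with an unadjusted p of 0.015 and an adjusted p of 0.11, and it passed the threshold under none of the 16 alternatives. Within the library series it was -0.28 and -0.41. Bak1, the other effector, on chromosome 17 from 27019810 to 27029009, was at 80.8, 83.4 and 92.4 CPM in Ctrl and at 77.7, 77.1 and 74.7 CPM in the cKO-labelled libraries. Its groups lay close to each other, with a log2 fold change of -0.16 (95% interval -0.32 to -0.0049, unadjusted p = 0.044, adjusted p = 0.20). The first series gave -0.06 for Bak1 and the second -0.23. Ggnbp1 shares 357 exon bases with it on the other strand, at 26 to 50 counts per library.

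**Figure D2:**
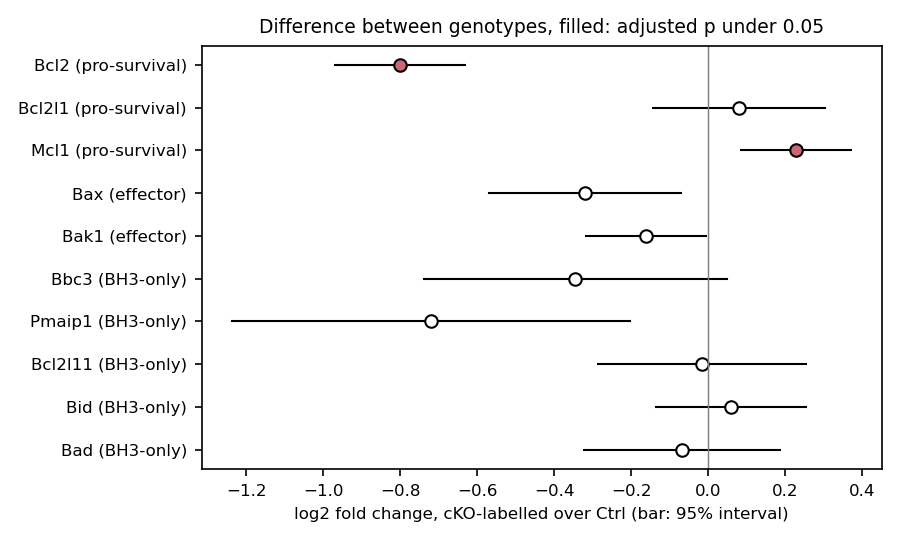
Log2 fold change of the cKO-labelled libraries over Ctrl (x axis) for the 10 genes, with bars for the 95% interval and filled points for an adjusted p under 0.05. Bcl2 at -0.80 and Mcl1 at 0.23 are filled, and the intervals of Bax, Bak1 and Pmaip1 lie below 0 without passing the adjusted threshold.

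None of the 5 BH3-only genes passed edgeR's test at the adjusted threshold, and 1 of them, Pmaip1, had an unadjusted p under 0.05. Pmaip1 encodes Noxa, a target of p53 that binds Mcl1, and lies on chromosome 18 from 66458604 to 66465550. It was at 6.58, 10.2 and 8.89 CPM in Ctrl 1, 2 and 3 and at 7.17, 3.94 and 4.56 CPM in cKO 1, 2 and 3, so that the groups overlapped through Ctrl 1 and cKO 1. The log2 fold change of Pmaip1 was -0.72 (standard error 0.24, 95% interval -1.24 to -0.20), with an unadjusted p of 0.0095 and an adjusted p of 0.088. It was -0.30 in the first series and -1.04 in the second, and rested on 62 to 213 counts per library. Without cKO 1 it was -1.02 (adjusted p = 0.030), without Ctrl 1 it was -0.87 (adjusted p = 0.047), and with no filter on low counts its adjusted p was 0.016.

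Bbc3, which encodes Puma, another p53 target that binds all pro-survival members, was at 8.88, 11.5 and 13.8 CPM in Ctrl and at 8.64, 10.5 and 7.79 CPM in the cKO-labelled libraries (chromosome 7, 16309616 to 16318205). The groups overlapped, with a log2 fold change of -0.34 (95% interval -0.74 to 0.05, adjusted p = 0.29). The first series gave 0.10 and the second -0.68, in opposite directions.

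Bcl2l11, the gene of Bim, which meets both pro-survival proteins and effectors, did not pass the test. It was at 22.9, 30.2 and 24.1 CPM in Ctrl and at 24.3, 23.5 and 28.9 CPM in the cKO-labelled libraries (chromosome 2, 128126038 to 128162547). The log2 fold change was -0.02 (95% interval -0.29 to 0.25, adjusted p = 0.96), and its sign changed with the processing. Within the first and the second library series it was 0.06 and 0.10. Bid, which caspase-8 cleaves downstream of death receptors, was at 40.4, 40.6 and 40.4 CPM in Ctrl and at 41.5, 46.5 and 38.6 CPM in the cKO-labelled libraries (chromosome 6, 120891930 to 120916853). The Ctrl libraries agreed closely, the others spread around them, and the log2 fold change was 0.06 (95% interval -0.13 to 0.25, adjusted p = 0.75). The first series gave 0.12 for Bid and the second -0.07. Bad, a sensor of growth factor and kinase signals, was at 21.7, 21.2 and 22.3 CPM in Ctrl and at 22.8, 17.9 and 21.5 CPM in the cKO-labelled libraries (chromosome 19, 6941861 to 6951898). Its log2 fold change was -0.07 (95% interval -0.32 to 0.19, adjusted p = 0.79), with -0.10 in the first series and -0.02 in the second. For Bcl2l1, Bcl2l11, Bid and Bad the intervals thus reached no further than 0.32 on the log2 scale from no change. Bid shares 628 exon bases on the other strand with Bcl2l13, which had 865 to 1773 counts, and Bad shares 517 with Gpr137, which had 131 to 282.

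Levels were compared between genes per length, as CPM per kb of summed exon length. That length covers all annotated exons of a gene (869 bases for Bax, 3418 for Mcl1, 9157 for Bcl2). The order and the class sums below depend on it. In plain CPM, Bcl2 lay above Mcl1 in Ctrl (219 and 176 CPM) and above Bax in the cKO-labelled libraries (126 and 15.9 CPM). In Ctrl, Mcl1 was the most abundant transcript of the 10 at 51.5 ± 3.64 CPM per kb (SD, n = 3), followed by Bak1 at 35.5 ± 2.53 and Bcl2 at 23.9 ± 2.62. Bcl2 and Bax (22.8 ± 0.68) overlapped in Ctrl, and Bid and Bad came next at 11.4 and 10.8 CPM per kb. At the low end, Bbc3 and Bcl2l1 (5.66 and 5.61) overlapped, as did Pmaip1 and Bcl2l11 (3.23 and 3.20). In the cKO-labelled libraries Mcl1 stood at 60.4 ± 1.68 CPM per kb and Bak1 at 31.8 ± 0.656. Bax (18.3 ± 1.05) then lay above Bcl2 (13.7 ± 0.70) in every library, and Bcl2 overlapped with Bid at 11.9 and Bid with Bad at 10.3. Bcl2l1 at 5.93, Bbc3 at 4.47, Bcl2l11 at 3.18 and Pmaip1 at 1.97 CPM per kb followed without overlap between neighbours. The order from Mcl1 to Bak1 was thus shared by both groups, and Bcl2 moved from beside Bax to beside Bid.

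**Figure D3:**
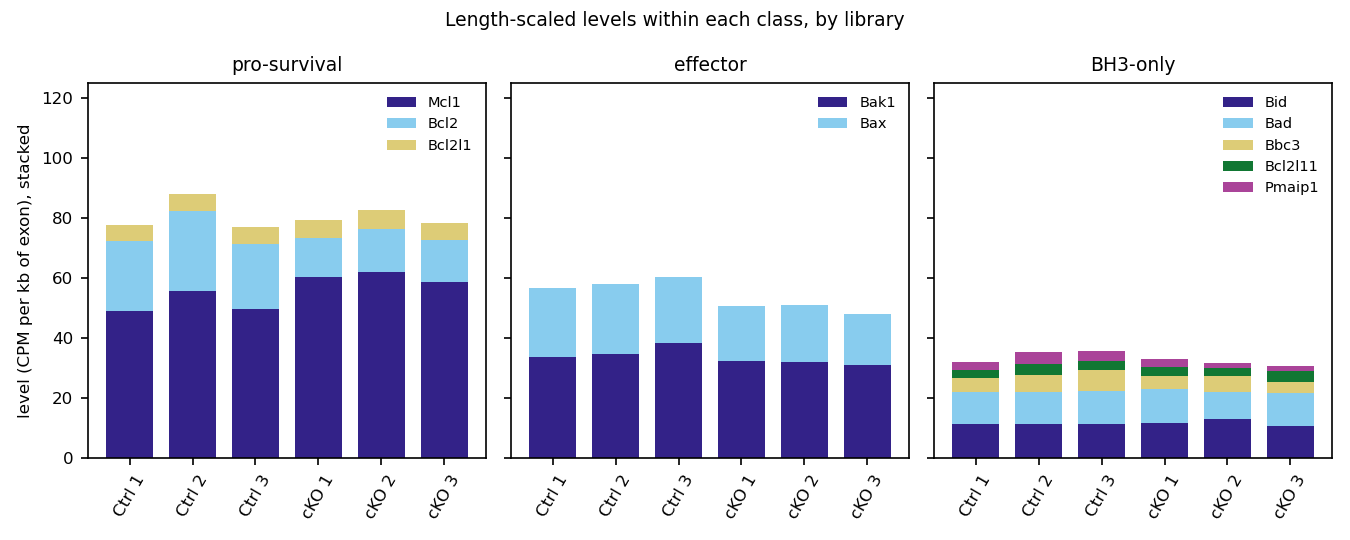
Level in CPM per kb of exon (y axis, stacked bars from 0) of each gene in each of the 6 libraries, in panels for pro-survival genes, effectors and BH3-only genes. The pro-survival bars reach about the same height in both groups at this scaling by length, while their Bcl2 segment is smaller in the 3 cKO-labelled libraries.

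Summed over the 3 pro-survival genes, the level was 80.98 ± 6.01 CPM per kb in Ctrl and 80.03 ± 2.25 in the cKO-labelled libraries (SD, n = 3 each), with overlapping groups. The make-up of the sum differed. Bcl2 gave 29.5 ± 1.41% of it in Ctrl and 17.2 ± 0.862% in the cKO-labelled libraries, and Mcl1 gave 63.6 ± 0.823% and 75.4 ± 0.501%. Bcl2l1 gave 6.96% and 7.41%. The near-equal sum holds per length only. In plain CPM the sum of the 3 genes was lower in every cKO-labelled library than in every Ctrl library. Mean plain levels in Ctrl and the cKO-labelled libraries were 219 and 126 CPM for Bcl2, 25.7 and 27.2 for Bcl2l1, and 176 and 206 for Mcl1. The effectors summed to 58.4 ± 1.98 and 50.1 ± 1.67 CPM per kb, without overlap, and the BH3-only genes to 34.3 ± 2.09 and 31.8 ± 1.18, with overlap. These sums are descriptions and were not tested.

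Ratios within a library do not depend on how libraries are scaled. The log2 ratio of Bcl2 to Mcl1 per length was -1.06, -1.06 and -1.21 in Ctrl 1, 2 and 3 and -2.22, -2.13 and -2.06 in cKO 1, 2 and 3. Its means of -1.11 ± 0.088 and -2.14 ± 0.082 (SD, n = 3 each) differed by -1.03, which stayed between -1.08 and -0.98 when any 1 library was left out. The log2 ratio of Bax to Bcl2 was -0.03, -0.19 and 0.04 in Ctrl and 0.52, 0.43 and 0.28 in the cKO-labelled libraries, higher in each of the latter, with a difference of 0.47 (0.41 to 0.54 with 1 library left out). The ratios of Bcl2l11 to Mcl1 and of Bax to Bak1 differed by -0.24 and -0.16, with overlapping groups. Of the ratios computed, that of Bcl2 to Mcl1 differed most. It pairs the genes called in opposite directions above, so that its difference restates their fold changes.

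Marker genes of several cell types also differed between the groups. The study reported that the make-up of the LSK cells was largely like that of controls at this time, without showing the data. By qRT-PCR in sorted subsets of LSK cells from 2 mouse pairs, it also found Klf1 lower in long-term stem cells. In the same way Mpo was lower in multipotent progenitors and Ighm in lymphoid-primed ones. Granulocyte and monocyte markers summed to 2900.3 to 3496 CPM in Ctrl and 481 to 785 CPM in the cKO-labelled libraries, with 9 of 10 tested genes (12 listed) lower, and Mpo, an enzyme of myeloid granules, went from 2668 ± 330 to 359.7 ± 97.5 CPM (SD, n = 3 each). Lymphoid-primed markers summed to 771 to 1492 and 456 to 600.4 CPM, with 3 of 9 tested lower (10 listed). Erythroid markers summed to 471 to 520.2 and 293 to 343 CPM, with 5 of 7 tested lower (9 listed), and those of mast cells and basophils to 54.5 to 65.5 and 18.2 to 25.7 CPM, with 4 of 5 lower (6 listed). T and NK cell markers summed to 54.0 to 66.6 and 29.0 to 37.3 CPM, with 2 of 4 lower (9 listed), and the defining genes Cd3e, Cd3d and Cd8a had at most 3 counts in every library. Stem cell-enriched genes moved the other way, at 498 to 529 and 583 to 655 CPM, with 6 of 10 higher. The 6 genes of the LSK gate summed to 1191 to 1316 and 1109.6 to 1235 CPM, Kit was at 452 ± 59.5 and 440 ± 24.7 CPM, and none passed edgeR's or DESeq2's test while 2 were lower at an unadjusted p under 0.05. B and plasma cell markers summed to 24.25 to 35.9 and 25.7 to 32.4 CPM, with 1 of 3 lower (7 listed) and Ms4a1 at no more than 3 counts. For megakaryocytes the sums were 148 to 162 and 136 to 182 CPM, with 1 of 5 higher and 1 lower (6 listed), and for stroma and endothelium 145 to 157 and 140.1 to 156 CPM, with 2 of 4 higher and 2 lower (7 listed) and Lepr at no more than 3 counts. The part of these shifts in the fall of Bcl2 and the rise of Mcl1 was not tested, and in bulk RNA fewer cells of a type cannot be told apart from less RNA per cell.

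The profile most like that of Bcl2 over the 6 libraries was that of Dntt, the lymphoid polymerase that adds bases at antigen receptor joints, which is 1 of the lymphoid-primed markers. Pearson's r of log2 CPM was 0.994 for Dntt, 0.992 for Rasgrp2 and 0.992 for Ttll12, out of 9505 genes with a mean of at least 10 CPM. Dntt had a log2 fold change of -5.86, Rasgrp2 one of -0.35 and Ttll12 one of -0.47. Usp22 (r = 0.992), Gapdh (0.987) and Zscan12 (0.983) were most like Mcl1, with log2 fold changes of 0.25, 0.20 and 0.42. Such values describe 6 libraries that share their genotype groups and series, and were not tested.

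Related lists held 118 genes, of which 105 were tested, 6 rose and 10 fell, with a median log2 fold change of -0.02. The calls in each list stand beside 3.88% called higher and 3.79% called lower among all genes tested. Of the 6 further pro-survival genes, Bcl2l2 alone was tested, at 10.8 and 11.7 CPM (log2 fold change 0.10, adjusted p = 0.74), and Bcl2a1a, Bcl2a1c and Bcl2l10 had at most 3 counts in every library. Reads of the near-identical Bcl2a1 copies are uncertain, since only uniquely aligned reads were counted. Of 8 tested genes of the other effectors, BH3-only and atypical members, Bcl2l13, which acts in mitophagy, fell (log2 fold change -0.37, adjusted p = 0.0084), from 85.6 ± 3.85 to 66.2 ± 5.32 CPM (SD, n = 3 each). Bok, an effector-like member, was at 1.82 and 3.51 CPM (log2 fold change 0.91, adjusted p = 0.18), and Bmf, a BH3-only gene, at 2.33 and 2.63 CPM (0.18, adjusted p = 0.84). Hrk had no counts.

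Downstream of the mitochondrion, 1 of 19 tested genes of the apoptosome, caspases and inhibitors of apoptosis passed the test. This was Htra2, a protease released from mitochondria, which fell from 36.1 ± 4.11 to 25.2 ± 1.35 CPM (log2 fold change -0.52, adjusted p = 0.0069). The list's median was -0.02, with 2 genes higher and 3 lower at an unadjusted p under 0.05. Of 9 tested death receptor genes, Tnfrsf1a, a TNF receptor, rose from 64.1 ± 5.40 to 80.3 ± 5.42 CPM (0.32, adjusted p = 0.028). Its call was lost without cKO 1, cKO 2, Ctrl 1 or Ctrl 3, at 0.27 to 0.31 and adjusted p-values of 0.084 to 0.11. DESeq2 called 3 genes of this list, all higher, and 3 were higher at an unadjusted p under 0.05 with edgeR.

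Regulators upstream of the family moved in both directions. Among 17 tested transcriptional regulators 2 rose and 2 fell, with a median of 0.06. Stat3, which transmits cytokine signals and can activate Bcl2l1 and Mcl1, rose from 173 ± 7.92 to 234 ± 4.59 CPM (SD, n = 3 each; log2 fold change 0.44, adjusted p = 5.5e-04), and Mecom, a stem cell factor, rose from 64.2 ± 3.37 to 87.8 ± 8.03 CPM (0.45, adjusted p = 0.0032). Myc fell from 491 ± 21.6 to 379 ± 13.4 CPM (-0.37, adjusted p = 0.0017) and E2f1, a factor of S phase entry, from 52.0 ± 0.551 to 41.5 ± 0.433 CPM (-0.33, adjusted p = 0.019). The call of E2f1 was lost when any 1 library other than Ctrl 1 was left out, at adjusted p-values of 0.052 to 0.072, and with total counts without factors (adjusted p = 0.068). Of 25 tested survival kinases and regulators acting on the proteins, Pim2, a kinase that phosphorylates Bad, rose from 11.96 ± 2.87 to 23.4 ± 2.88 CPM (0.95, adjusted p = 0.0020). The median of this list was -0.02, with 4 genes higher and 3 lower at an unadjusted p under 0.05. DESeq2 called 1 of its genes higher and 1 lower.

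Cytokine receptors that carry survival signals moved in both directions, 2 up and 2 down among 11 tested. Csf2rb2, the IL-3-specific beta chain, rose from 13.8 ± 3.67 to 33.0 ± 3.97 CPM (log2 fold change 1.24, adjusted p = 2.3e-04). Il7r, the receptor of the cytokine that sustains lymphoid progenitors, fell from 7.40 ± 3.44 to 2.76 ± 0.101 CPM (-1.42, adjusted p = 0.014). Without Ctrl 2 it was -1.16 (adjusted p = 0.060) and without cKO 2 it was -1.42 (adjusted p = 0.064). Csf3r, the G-CSF receptor, fell from 103 ± 9.89 to 81.7 ± 8.08 CPM (-0.33, adjusted p = 0.033), and was not called without cKO 2, cKO 3 or Ctrl 3, at adjusted p-values of 0.064 to 0.17, nor with the library series as a covariate (-0.30, adjusted p = 0.059) or total counts without factors (adjusted p = 0.072).

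Of the family, Bax, Bbc3 and Pmaip1 are also known targets of p53, and their log2 fold changes of -0.32, -0.34 and -0.72 did not pass the test. Outside the family, 4 of 15 tested p53 targets fell and no gene rose with edgeR or with DESeq2. At an unadjusted p under 0.05, 7 were lower and 1 higher, and the list's median was -0.19. Among all genes tested, 3.79% were called lower, and 22.9% had an unadjusted p under 0.05 in either direction. Trp53, the gene of p53 itself, stood at 158 ± 2.39 CPM in Ctrl and 149 ± 10.5 CPM in the cKO-labelled libraries (SD, n = 3 each). Its groups overlapped, and its change of -0.08 on the log2 scale was not called (adjusted p = 0.52). Whether p53 activity differed was not tested. Phlda3, an inhibitor of Akt, fell from 8.63 ± 1.31 to 4.07 ± 0.799 CPM (log2 fold change -1.09, adjusted p = 0.0059) and Zmat3, an RNA-binding protein, from 25.7 ± 6.31 to 13.6 ± 1.72 CPM (-0.93, adjusted p = 0.0026). Ccng1 fell from 123 ± 7.78 to 93.4 ± 4.27 CPM (-0.40, adjusted p = 0.0028), and Aen, a nuclease, from 85.2 ± 2.60 to 71.6 ± 3.08 CPM (-0.25, adjusted p = 0.042). The call of Aen was lost when any 1 library other than cKO 3 was left out, at adjusted p-values of 0.051 to 0.16, and with the library series as a covariate (-0.22, adjusted p = 0.076) or total counts without factors (adjusted p = 0.13).

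Mecom and Il7r are themselves on the stem cell and lymphoid marker lists given above, and what the marker shifts contribute to the genes of these lists was not tested.

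**Figure D4:**
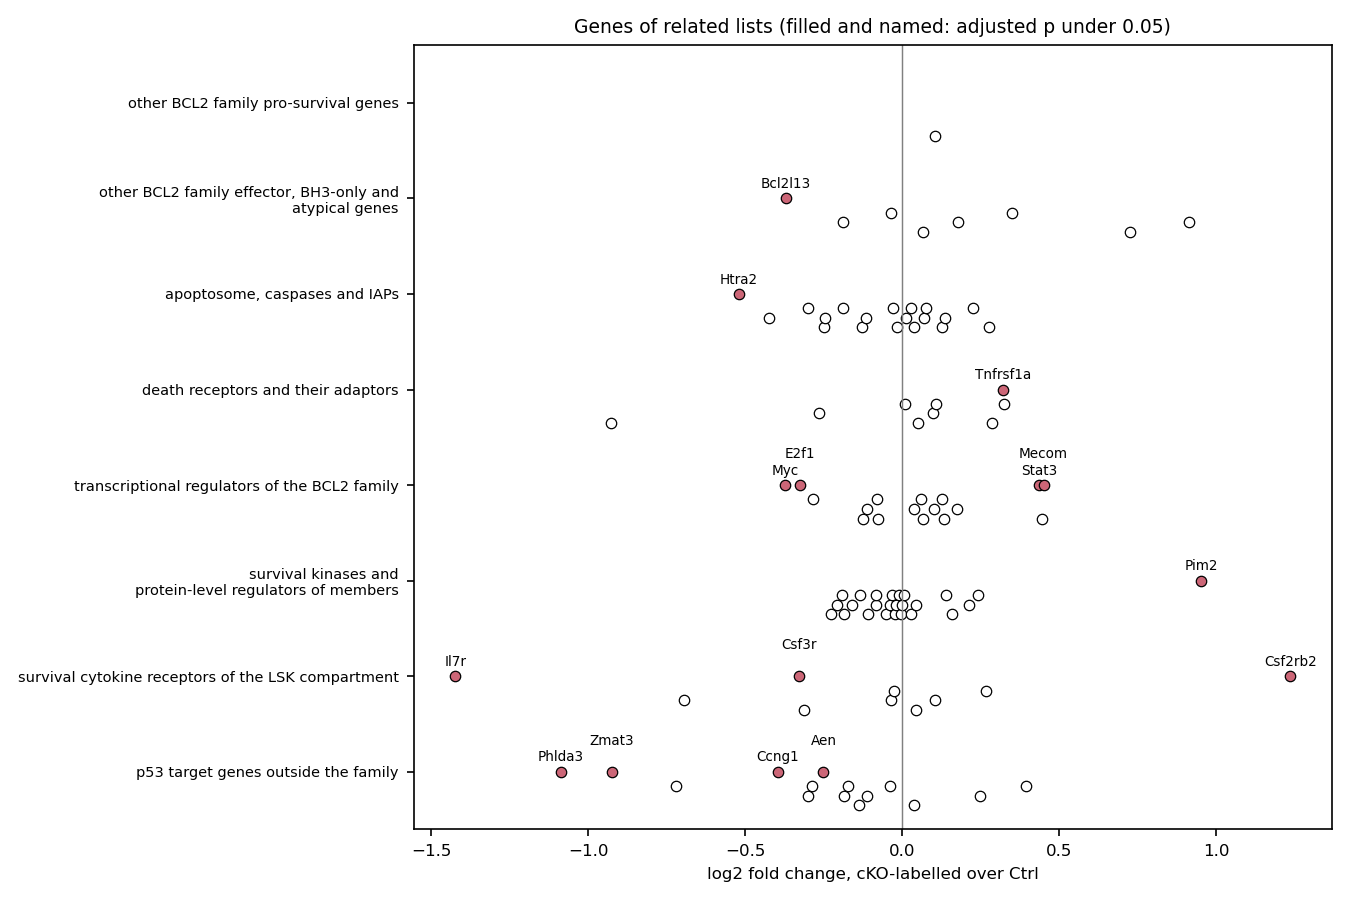
Log2 fold change of the cKO-labelled libraries over Ctrl (x axis) for the tested genes of the 8 related lists, with filled and named points at an adjusted p under 0.05 and 1 called gene left out. The named genes lie on both sides of 0, and the 4 named p53 targets lie below it.

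**Figure D5:**
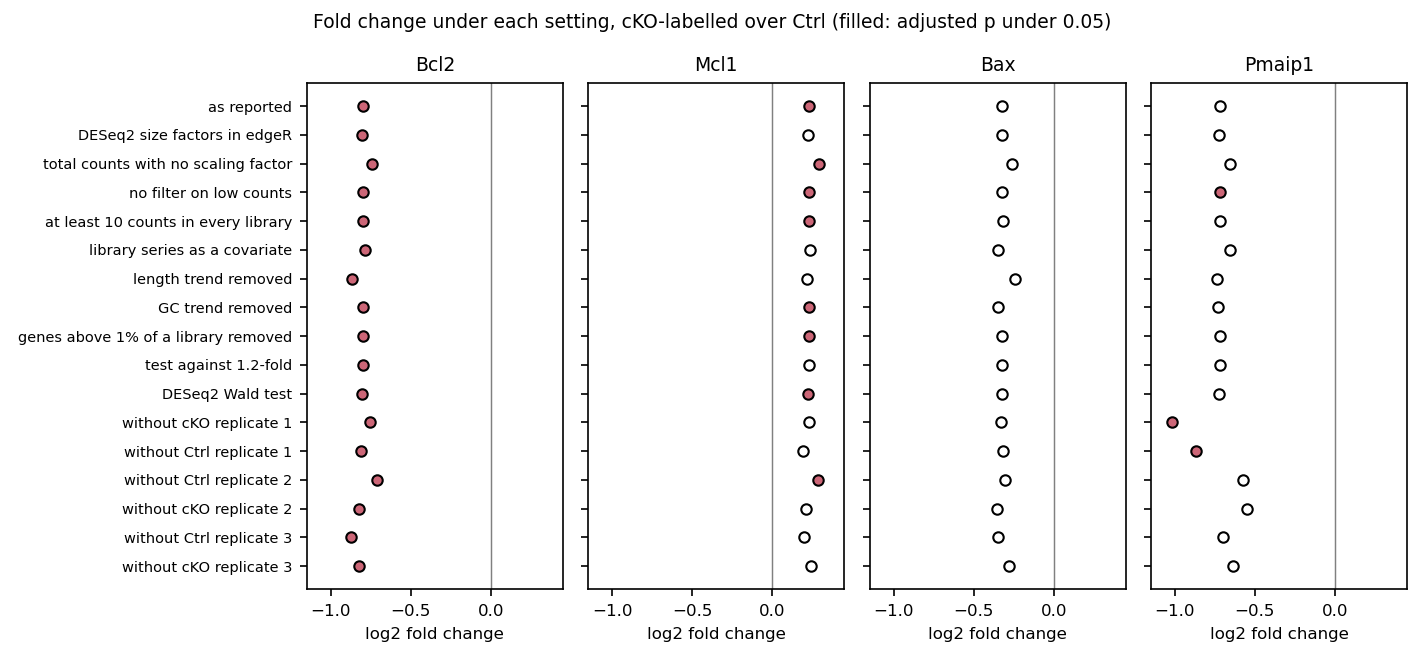
Log2 fold change of Bcl2, Mcl1, Bax and Pmaip1 (x axis) as reported and under each of 16 alternatives of processing (y axis), with filled points at an adjusted p under 0.05. Bcl2 is filled in every row, Mcl1 in 7 of the 16 alternatives, Pmaip1 in 3 and Bax in none.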

How the data were processed

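RNA of sorted LSK cells from 6 mice was sequenced with the SMARTer Stranded Total RNA-seq Pico Input kit. The authors aligned reads to GRCm38/mm10 by GSNAP and summarized the unique alignments per Ensembl gene with featureCounts 1.5.0, on the gene's strand and at a mapping quality of at least 1. They deposited these raw counts, 1 column per mouse, with no normalization, and a summed exon length per gene. bcl2fastq 2.17.1.14 is named in the submitters' processing notes. Symbols and positions came from GENCODE M21, which named 98.8% of the genes.

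From the counts, TMM-scaled CPM were computed, and genes kept by filterByExpr were tested with the quasi-likelihood test of edgeR 4.0.16 in R 4.3.3, with genotype as the only term and Benjamini-Hochberg adjustment over 15184 genes at 0.05. Standard errors were derived from the F statistic (the size of the log2 fold change over the root of F), and 95% intervals use the t distribution. The procedure was tested on simulated data. Library totals (median 14889023.5 counts) limit the precision of genes under 10 CPM most.

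Alternatives were DESeq2 1.42.0 (its size factors, its Wald test), total counts without factors, no filter and at least 10 counts in every library. Others were the library series as a covariate, removal of length or GC trends and removal of genes above 1% of a library. These trends were fitted by loess (span 0.3) and given to edgeR as offsets. The last were a test against 1.2-fold, a threshold of 0.01, and leaving out each library. Genes named outside the family are Setd1b, those past the threshold in a list (at most 6), up to 2 top markers by mean CPM, and the 3 genes most like each called member. Bok, Bmf, Bcl2l2, Trp53 and the genes at the floor were named after their values had been seen. The members and lists were chosen with earlier results of these data known. Of the listed genes past the threshold, 1 is counted but not reported here. A gene was at the floor at no more than 3 counts.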

Additional observations from a re-analysis of the deposited data

How the results depend on the processing

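Of the 10 genes, 2 passed the threshold as reported. Only 1, Bcl2, did so with DESeq2 size factors, with the library series as a covariate, with the length trend removed, against 1.2-fold and at an adjusted p under 0.01, and leaving out 1 library gave 1 to 2. Where 2 passed without cKO 1 or Ctrl 1, these were Bcl2 and Pmaip1. Among all genes, 1164 became 341 against 1.2-fold, 513 at 0.01 and 604 to 1125 with 1 library left out (604 without cKO 2, 665 without Ctrl 3, 739 without cKO 3), and the 16 listed genes became 6 against 1.2-fold. Bcl2l11 turned to 0.043 with total counts and 0.075 with the series as a covariate, and ran from -0.12 to 0.12 with 1 library left out. Bid ran from -0.016 to 0.12 and Bad from -0.14 to 0.029 in the same way. In all, 150 of 170 member values over 17 settings kept their direction and side of the threshold, as did 233 of 272 values of listed genes, with no reversal in the latter.

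The causes of these changes were not tested. No paired analysis was possible because the labels give no replicate numbers and do not say which mice were littermates of each other. Of the 10 genes, Bbc3 and Pmaip1 rest on the fewest counts, 62 to 241 per library.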
